A study of Mus musculus with 12 samples.

Results

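Npy, Gal, Nppb, Pthlh, Penk and Vgf encode precursors of neuropeptides and peptide hormones, and they were described across 12 YUMM1.7 tumors. These 6 genes are all listed among the 23940 genes of the deposited expression table, and 5 of them averaged 1 FPKM or more across the tumors. FPKM are fragment numbers scaled to transcript length and library size, so levels can be set side by side between genes. The members were chosen by their FPKM with a BRAF inhibitor (BRAFi) against vehicle, for large rises, with earlier results of these data known. The comparison of BRAFi with vehicle is therefore given for them as a description without a test. The description held for Npy, Gal, Nppb and Pthlh, while Penk was lower under BRAFi and Vgf was close to 0 in every tumor.

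YUMM1.7 cells come from a Braf-mutant melanoma of the mouse. The tumors grew in immunodeficient mice, named NSG in the sample labels and NOD/SCID in the series design. Control tumors (no PD-L2 overexpression) and PD-L2 tumors (overexpressing PD-L2, a ligand of the PD-1 receptor) each received vehicle (DMSO in the titles) or BRAFi, with 3 separately named tumors in each of the 4 groups. The inhibitor's name, its dose and duration, the promoter driving PD-L2 and the age of the mice are not stated in the labels or design text; the latter speaks of BRAFi resistance. Where nothing says that tumors came from separate mice, p-values measure only the spread between these tumors.

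Neuropeptides and peptide hormones are made as larger precursors that enter the secretory pathway, are cut by prohormone convertases, trimmed by carboxypeptidases and often amidated before release. They then act on receptors of neighbouring cells or, through the blood, on distant tissues. Neuropeptide Y and galanin are transmitters of neurons, including sympathetic ones. Brain natriuretic peptide, from Nppb, lowers blood volume and pressure, and parathyroid hormone-related protein, from Pthlh, regulates bone and cartilage and raises blood calcium when tumors secrete it.

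The RefSeq promoter table (build GRCm38.p6) matched 4 of the 6 genes, and the 250 bases upstream of the listed start are shown for each. Penk and Vgf had no entry. The 4 matched genes are also those that were higher under BRAFi, so no member without a rise can be set beside them. Capitals mark matches to 6 motifs searched on both strands: TGANTCA for AP-1, TGACG for the core of the cAMP response element, GGAATG for TEAD factors, CCGGAA for ETS factors, AGATAA for GATA factors, and TATAAA for the TATA box. The windows lie at chr6:49822460-49822709 (plus strand) for Npy, chr19:3414545-3414794 (minus) for Gal, chr4:147985650-147985899 (plus) for Nppb and chr6:147264014-147264263 (minus) for Pthlh.
Npy: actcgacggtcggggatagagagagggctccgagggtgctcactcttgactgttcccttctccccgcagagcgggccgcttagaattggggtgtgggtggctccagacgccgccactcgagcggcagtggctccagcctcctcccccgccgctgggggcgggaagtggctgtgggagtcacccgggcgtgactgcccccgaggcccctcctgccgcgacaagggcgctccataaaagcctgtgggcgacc
Gal: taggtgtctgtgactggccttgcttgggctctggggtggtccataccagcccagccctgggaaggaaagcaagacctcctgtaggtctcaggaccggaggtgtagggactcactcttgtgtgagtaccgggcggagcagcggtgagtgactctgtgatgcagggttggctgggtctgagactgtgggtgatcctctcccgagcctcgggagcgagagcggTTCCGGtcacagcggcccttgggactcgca
Nppb: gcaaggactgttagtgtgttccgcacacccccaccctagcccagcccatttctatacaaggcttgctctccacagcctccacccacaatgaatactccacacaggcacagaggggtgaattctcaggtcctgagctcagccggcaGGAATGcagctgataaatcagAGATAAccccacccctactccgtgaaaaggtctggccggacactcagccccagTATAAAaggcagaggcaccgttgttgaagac
Pthlh: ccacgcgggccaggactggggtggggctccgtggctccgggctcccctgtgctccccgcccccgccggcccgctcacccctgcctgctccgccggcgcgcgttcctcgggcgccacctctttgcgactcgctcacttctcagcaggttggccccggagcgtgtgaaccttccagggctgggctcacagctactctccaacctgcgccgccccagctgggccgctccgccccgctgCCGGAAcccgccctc
The Nppb window held 1 match each to the TEAD, GATA and TATA letters, which were present in 12.6%, 9.99% and 12.4% of the 32851 windows of the same length. Gal and Pthlh each held 1 match to the ETS letters, present in 12% of windows, with the Gal match on the other strand. Npy held no match to any of the 6, and no window held the AP-1 or cAMP response letters, present in 6.75% and 17.8% of windows. The matches did not overlap each other. The G and C content was 69.2% for Npy, 62.4% for Gal, 54.8% for Nppb and 75.2% for Pthlh, and 89.6%, 77.5%, 57.8% and 96.1% of windows had a lower value. No motif among the 6 was shared by the 4 windows.

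The deposited table holds FPKM and no read counts, so the depth of each tumor's library is unknown and no counting interval is given. FPKM sums ran from 499845 to 648254. Mir2137, a microRNA gene listed at 0 in the other tumors, made up 16.1% of the sum of PD-L2 BRAFi tumor 2, and PD-L2 BRAFi tumor 3 had a summed FPKM of 199 over 12 keratinocyte markers against 5.09 to 9.62 in the other tumors. The summed FPKM of 12 skeletal muscle markers was 434 in control vehicle tumor 3, 176 in PD-L2 BRAFi tumor 3 and 105 in PD-L2 vehicle tumor 2, against 1.46 to 15.9 elsewhere. That of 8 adipocyte markers was 72.4 in control vehicle tumor 3 and 2.31 to 18.4 elsewhere. The BRAFi differences of the 5 tested members are given below with and without these libraries. Of 12 melanocyte markers, 7 stayed under 1 FPKM in every tumor. Mitf, the lineage's regulator, had group means of 3.29 to 4.48 FPKM, so the pigment cell label rests on few expressed markers. The introduced gene Pdcd1lg2 was at 20.8 to 176 FPKM in PD-L2 tumors and 0.133 to 3.54 in control tumors.

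**Figure D1:**
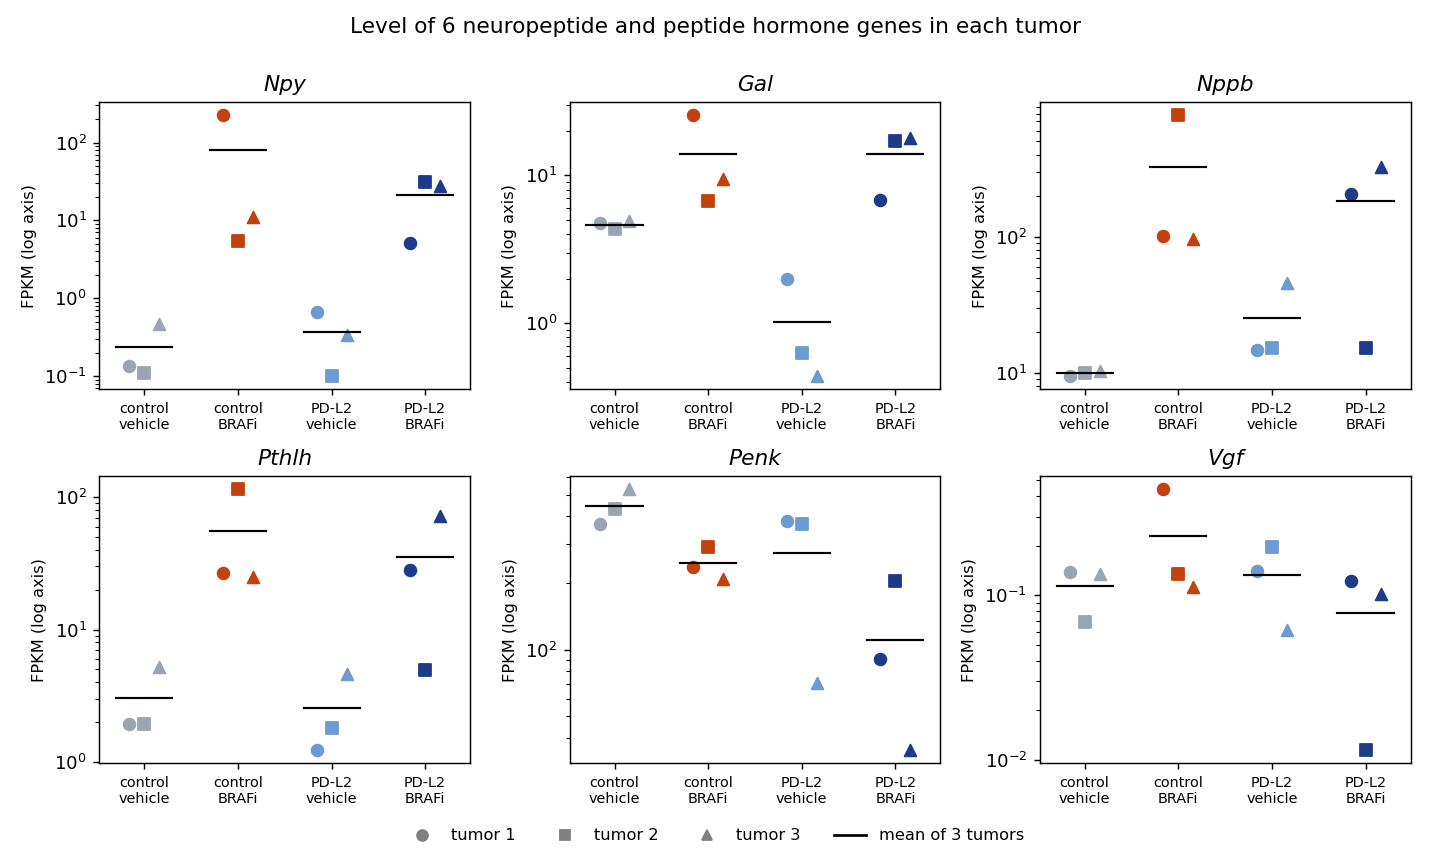
Level of each of the 6 genes in FPKM (log axis) in every tumor, by group; symbols give the tumor number and bars the mean of 3 tumors. Npy and Gal were higher in all 6 BRAFi tumors than in any vehicle tumor, Nppb and Pthlh overlapped through PD-L2 BRAFi tumor 2, Penk was highest in vehicle tumors, and Vgf stayed below 0.5 FPKM.

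Npy, the neuropeptide Y precursor, went from barely listed levels under vehicle to clear expression in every BRAFi tumor. It was at 0.136, 0.109 and 0.465 FPKM in control vehicle tumors 1 to 3 and at 225, 5.4 and 11.2 FPKM in control BRAFi tumors 1 to 3. In PD-L2 tumors 1 to 3 it was at 0.671, 0.0991 and 0.339 FPKM under vehicle and at 5.15, 31.6 and 27.3 FPKM under BRAFi. The lowest BRAFi tumor thus lay above the highest vehicle tumor on both backgrounds, by a factor of 11.6 in control and 7.68 in PD-L2 tumors. On the log2(FPKM + 1) scale, which understates changes of low genes, the difference was 4.41 ± 1.10 (SE) in control and 3.73 ± 1.10 in PD-L2 tumors. Control BRAFi tumor 1 carried much of the first value: without it the difference was 2.85. The ratio of group means was 340 in control tumors, and the ratio of medians, which that tumor does not set, was 82.1; in PD-L2 tumors these were 57.8 and 80.6. The PD-L2 difference was 3.29 without PD-L2 BRAFi tumor 2 and 3.39 without tumor 3.

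Gal, the galanin precursor, was also higher in every BRAFi tumor than in any vehicle tumor, from a starting level that differed between the backgrounds. Control vehicle tumors were at 4.75, 4.31 and 4.88 FPKM and control BRAFi tumors at 25.6, 6.75 and 9.44. PD-L2 vehicle tumors were at 1.98, 0.624 and 0.436 FPKM and PD-L2 BRAFi tumors at 6.78, 17.2 and 18. The BRAFi groups had nearly equal means, 13.9 ± 10.2 and 14.0 ± 6.27 FPKM (SD, n = 3 each). The difference with BRAFi was 1.19 ± 0.47 on the log2 scale in control tumors, or 0.67 without control BRAFi tumor 1, and 2.87 ± 0.47 in PD-L2 tumors. The latter was 2.67 without PD-L2 BRAFi tumor 2 and 2.64 without tumor 3. The gap between these responses was 1.67 ± 0.67, and it was not tested, since BRAFi responses chose the genes.

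Nppb, the precursor of brain natriuretic peptide, reached the highest level of the genes that were higher under BRAFi, with a group mean that ranked 213 among all 23940 genes in control BRAFi tumors. Control vehicle tumors were tightly grouped at 9.45, 10 and 10.4 FPKM, and control BRAFi tumors were at 102, 779 and 96.3. PD-L2 vehicle tumors were at 14.7, 15.3 and 45.4 FPKM and PD-L2 BRAFi tumors at 207, 15.2 and 327. PD-L2 BRAFi tumor 2 therefore stayed at the vehicle level while the other 5 BRAFi tumors lay above every vehicle tumor. The difference with BRAFi was 4.18 ± 1.08 on the log2 scale in control tumors and 2.18 ± 1.08 in PD-L2 tumors. The second value was 3.52 without PD-L2 BRAFi tumor 2 and 1.35 without PD-L2 BRAFi tumor 3.

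Pthlh, which encodes parathyroid hormone-related protein, had the same shape at lower levels. It was at 1.92, 1.93 and 5.19 FPKM in control vehicle tumors and at 26.7, 115 and 24.8 in control BRAFi tumors. PD-L2 vehicle tumors were at 1.22, 1.81 and 4.6 FPKM and PD-L2 BRAFi tumors at 28.1, 4.92 and 72.2. PD-L2 BRAFi tumor 2 was again the lowest treated tumor, just above the PD-L2 vehicle tumors and below control vehicle tumor 3. The log2 difference with BRAFi was 3.54 ± 0.86 in control and 2.83 ± 0.86 in PD-L2 tumors, the latter 3.82 without PD-L2 BRAFi tumor 2. Without PD-L2 BRAFi tumor 3, which held the keratinocyte markers, it was 2.00. Control BRAFi tumor 2, with the highest Pthlh, had a keratinocyte marker sum of 6.14 FPKM, and the part of these markers in the Pthlh difference was not tested.

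Penk, the proenkephalin gene, behaved differently from the other expressed members: it was abundant under vehicle and lower under BRAFi. Enkephalins are opioid peptides. Control vehicle tumors were at 371, 431 and 531 FPKM, a mean that ranked 170 among all genes, and control BRAFi tumors were at 237, 292 and 208, below all of them, as were 17% of tested genes. PD-L2 vehicle tumors were at 380, 368 and 70.9 FPKM and PD-L2 BRAFi tumors at 90.8, 204 and 35.0, which overlap through PD-L2 vehicle tumor 3. The log2 difference with BRAFi was -0.85 ± 0.68 in control tumors and -1.30 ± 0.68 in PD-L2 tumors. The latter was -2.09 without PD-L2 vehicle tumor 3, -1.91 without PD-L2 BRAFi tumor 2 and -0.66 without PD-L2 BRAFi tumor 3. The summed FPKM of 11 macrophage markers was lowest in PD-L2 BRAFi tumor 3 (412), which had the lowest Penk, and was 789 in PD-L2 vehicle tumor 3. In control tumors the order differed: the sum was 2610, 1910 and 1630 in vehicle tumors 1 to 3, where Penk was lowest in tumor 1 and highest in tumor 3. It was 586 in control BRAFi tumor 2, which had the highest Penk of its group. Over groups this sum ran from 1630 to 2610 in control vehicle, 586 to 1120 in control BRAFi, 789 to 1770 in PD-L2 vehicle and 412 to 1360 in PD-L2 BRAFi tumors. None of the 11 was under 1 FPKM in all tumors, and their part in the Penk difference was not tested. In bulk tumors, fewer cells of a type and less RNA per cell cannot be told apart.

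Vgf, a granin-like precursor induced by nerve growth factor, did not share the rise. Its values ran from 0.0114 FPKM in PD-L2 BRAFi tumor 2 to 0.442 in control BRAFi tumor 1, the groups overlapped on both backgrounds, and the gene was below the filter for testing. Group means were 0.114 ± 0.0386 and 0.23 ± 0.185 FPKM in control tumors under vehicle and BRAFi, and 0.133 ± 0.0682 and 0.0784 ± 0.0589 FPKM in PD-L2 tumors (SD, n = 3 each). With counts unknown, such values cannot be told from background.

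In all, 4 of the 6 genes had 3 BRAFi tumors above 3 vehicle tumors in control tumors, where this held for 19.1% of tested genes, and 3 of the 6 did so in PD-L2 tumors, where it held for 15.6%. For 2 genes, Npy and Gal, all 6 BRAFi tumors lay above all 6 vehicle tumors, which 4.97% of tested genes did. These counts follow from how the genes were chosen. In control tumors Npy ranked 2 and Nppb 5 from the top of 12117 tested genes by log2 difference, with Pthlh at 14 and Gal at 309. In PD-L2 tumors the ranks were 11 for Npy, 20 for Gal, 21 for Pthlh and 45 for Nppb, while Penk ranked 358 and 108 from the bottom. Without control vehicle tumor 3 the control differences were 4.54 for Npy, 1.22 for Gal, 4.21 for Nppb, 3.90 for Pthlh and -0.71 for Penk. Without PD-L2 vehicle tumor 2 the PD-L2 differences were 3.58, 2.75, 1.94, 2.72 and -0.91.

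**Figure D2:**
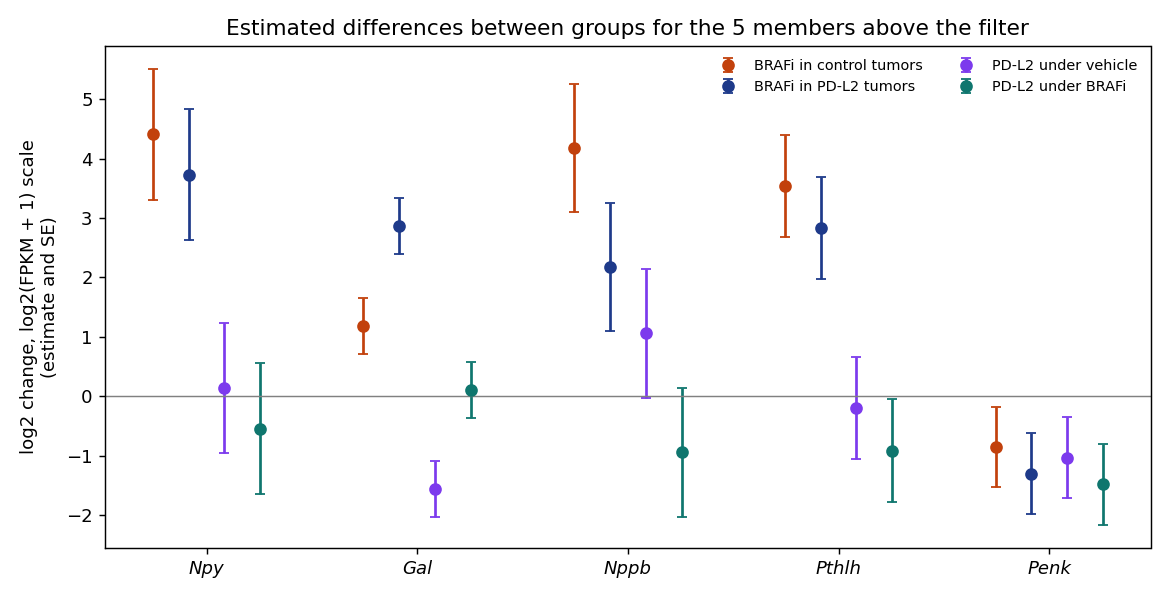
Estimated difference and SE (log2(FPKM + 1) scale, limma, 3 tumors a group) for the 5 genes above the filter in 4 comparisons. BRAFi differences were positive for Npy, Gal, Nppb and Pthlh and negative for Penk, while PD-L2 differences ranged from -1.56 to 1.06.

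PD-L2 tumors were compared with control tumors within each treatment, a contrast that did not choose the genes but reuses their tumors. Under vehicle, 0 of 5 tested members passed limma's test with Benjamini-Hochberg adjustment over 12117 genes, and 0% of all tested genes did. The introduced gene Pdcd1lg2 itself missed the threshold there, at 5.8 ± 0.72 on the log2 scale (limma adjusted p = 0.0521). Under BRAFi it passed, at 5.11 ± 0.72 (limma adjusted p = 0.0454). The absence of calls under vehicle therefore says little about smaller differences. At an unadjusted p under 0.05 there was 1 member, Gal, against 10.9% of all genes. All 3 PD-L2 vehicle tumors were below the control vehicle tumors for Gal, with a log2 difference of -1.56 ± 0.47 (limma adjusted p = 0.319), and 10.5% of tested genes were likewise lower without overlap. For Nppb all 3 PD-L2 vehicle tumors were above the control ones, at 1.06 ± 1.08 (limma adjusted p = 0.744), as were 10% of tested genes. These SE and p rest on 1 estimate of spread over all 4 groups, so they also carry the spread of the BRAFi tumors. In a fit to the 2 vehicle groups only, the limma adjusted p was 0.128 for Gal and 0.327 for Nppb. Npy (0.14 ± 1.10), Pthlh (-0.20 ± 0.86) and Penk (-1.03 ± 0.68) overlapped, with limma adjusted p from 0.597 to 0.981. Npy, with vehicle means of 0.237 and 0.37 FPKM, was above the filter only through its BRAFi tumors. Its test under vehicle therefore carries no information, although it is counted among the 5. Without PD-L2 vehicle tumor 3 the log2 difference was 0.55 for Nppb and -0.23 for Penk.

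Under BRAFi, 0 of 5 members passed between PD-L2 and control tumors, while 0.0743% of tested genes did, and no member was under an unadjusted p of 0.05 against 7.06% of genes. Penk came closest: its 3 PD-L2 BRAFi tumors, at 35.0 to 204 FPKM, lay below the 3 control BRAFi tumors, at 208 to 292. Its log2 difference was -1.48 ± 0.68 (limma adjusted p = 0.714), or -0.83 without PD-L2 BRAFi tumor 3, and 4.78% of tested genes were lower without overlap. Npy (-0.54 ± 1.10), Gal (0.11 ± 0.47), Nppb (-0.94 ± 1.08) and Pthlh (-0.91 ± 0.86) overlapped between the groups, with limma adjusted p from 0.85 to 0.973. The signs of these 4 differences changed when single BRAFi tumors were left out. A p above the threshold at 3 tumors a group does not show that PD-L2 left these genes unaltered.

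The rises were uneven between tumors, and the order of tumors for Nppb and Pthlh differed from that for Npy and Gal. Under BRAFi, Nppb and Pthlh put the 6 tumors in an identical order: control tumor 2, PD-L2 tumor 3, PD-L2 tumor 1, control tumor 1, control tumor 3 and PD-L2 tumor 2. Of the other 12116 tested genes, 127 (1.05%) shared that order with Nppb. Npy and Gal ordered 13 of the 15 pairs of tumors alike, both with control tumor 1 highest and with control tumor 2 and PD-L2 tumor 1 lowest. No share over all genes is given for that likeness. Each of them ordered 5 of 15 pairs as Nppb and Pthlh did. Penk ordered 6 to 8 of 15 pairs as these 4 genes did. Control BRAFi tumor 2, which had the most Nppb and Pthlh, thus had nearly the least Npy and Gal. The tumors shared a library in each such comparison, so these orders are descriptions with no test.

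**Figure D3:**
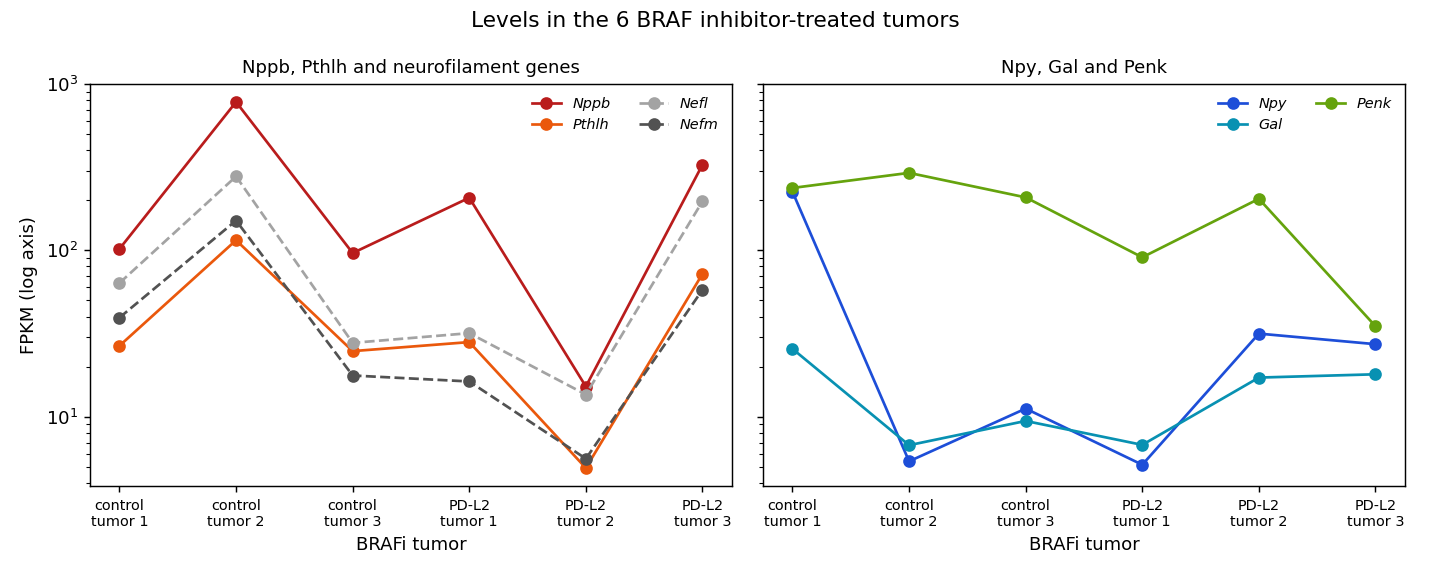
FPKM (log axis) in each of the 6 BRAFi tumors for Nppb, Pthlh and the neurofilament genes Nefl and Nefm (left) and for Npy, Gal and Penk (right). Nppb and Pthlh peaked in control tumor 2 at 779 and 115 FPKM and were lowest in PD-L2 tumor 2, whereas Npy and Gal peaked in control tumor 1 at 225 and 25.6 FPKM.

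The spread between tumors of a group was large for all 5 tested members. The residual SD of log2(FPKM + 1) was 1.54 for Npy, 1.52 for Nppb, 1.2 for Pthlh, 0.95 for Penk and 0.66 for Gal, and 92.8% to 98.6% of tested genes had a smaller one. In control vehicle tumors the highest tumor exceeded the lowest by a factor of 1.1 for Nppb, 1.13 for Gal, 1.43 for Penk, 2.7 for Pthlh and 4.26 for Npy. In PD-L2 vehicle tumors that factor was 3.1 for Nppb, 3.75 for Pthlh, 4.54 for Gal, 5.36 for Penk and 6.77 for Npy. In control BRAFi tumors the factor was 41.7 for Npy, 8.09 for Nppb, 4.64 for Pthlh, 3.8 for Gal and 1.4 for Penk. In PD-L2 BRAFi tumors it was 21.5 for Nppb, 14.7 for Pthlh, 6.14 for Npy, 5.84 for Penk and 2.66 for Gal. By this factor Gal was less spread under BRAFi than under vehicle in PD-L2 tumors. By SD it was more spread, at 6.27 FPKM under BRAFi against 0.843 FPKM under vehicle.

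For each tested member the 3 genes with the most similar profile over the 12 tumors were found, by the mean absolute difference of log2(FPKM + 1) after each profile was centred on its mean. The nearest to Nppb was Pthlh itself (0.523), followed by Ggct, which encodes gamma-glutamylcyclotransferase (0.549), and the prolactin family gene Prl2c3 (0.571). The nearest to Pthlh were the cannabinoid receptor gene Cnr1 (0.426), the autophagy gene Atg9b (0.444) and the orphan receptor gene Gpr149 (0.487). Cnr1 was at 11.9, 33.7 and 7.04 FPKM in control BRAFi tumors and 3.17, 1.66 and 29.1 in PD-L2 BRAFi tumors, against 0.118 to 0.711 under vehicle. Npy was nearest to the mast cell protease Mcpt1 (0.917), the keratin Krt18 (1.05) and Gal (1.06). Mcpt1 was highest in control BRAFi tumor 2 (98.1 FPKM), where Npy was at 5.4 FPKM. Gal was nearest to the matrix metalloproteinases Mmp3 (0.469) and Mmp9 (0.484) and to the integrin subunit Itga1 (0.522). Seen from Gal, Npy came only at place 6609 among the tested genes. The profiles were centred but not scaled, so this place also reflects the larger differences of Npy. Penk was nearest to the leukotriene C4 synthase gene Ltc4s (0.512), the small proteoglycan gene Ogn (0.536) and 2510002D24Rik (0.539). The distance from Penk to the other members was 1.59 to 2.63. Mcpt1 and Prl2c3 belong to families of related genes. How reads that match several family members were assigned was not checked, so the values of Mcpt1 and Prl2c3 are uncertain.

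Most receptors through which these peptides act were little expressed. Of 19 receptor symbols 18 were in the table, 5 had a mean of at least 1 FPKM, and 0 of these 5 passed in any of the 4 comparisons. Of all tested genes, 7.42% passed for BRAFi in control tumors, 0.239% in PD-L2 tumors, 0% for PD-L2 under vehicle and 0.0743% under BRAFi. None of the 5 was under an unadjusted p of 0.05 in limma's test in any comparison. The shares of all genes at that p were 31.8%, 21.3%, 10.9% and 7.06%, in the same order. With 5 genes, such counts of 0 say little. Npr1, the guanylyl cyclase receptor of Nppb's product, had group means of 1.27 to 2.62 FPKM and differences with BRAFi of -0.39 ± 0.35 (limma adjusted p = 0.469) in control and -0.54 ± 0.35 (0.396) in PD-L2 tumors. Npr3, which clears natriuretic peptides, was at 0.71 to 1.56 FPKM. Pth1r, the receptor of parathyroid hormone-related protein, was at 0.859 to 1.18 FPKM, with -0.07 ± 0.24 and -0.10 ± 0.24. C3ar1, a complement receptor that also binds a Vgf-derived peptide in rodents, was at 19.9 to 31.2 FPKM. Npr2, which prefers C-type natriuretic peptide, was at 18.2 to 20.6 FPKM. The opioid receptors Oprd1, Oprm1 and Oprk1 never exceeded 0.0721 FPKM, and Npy1r and Galr1 had means over the 12 tumors of 0.408 and 0.108 FPKM. Galr2, a galanin receptor, had a group mean of 2.26 FPKM in PD-L2 BRAFi tumors, with 6.27 in the highest tumor, and means of 0.322 to 0.598 in the other groups.

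The neuroendocrine convertases were nearly absent, with Pcsk1 at no more than 0.318 FPKM and Pcsk2 at no more than 0.0112 in any tumor. Furin, a convertase found in most cells, had group means of 68.2 to 94.4 FPKM. The carboxypeptidase gene Cpe was at 162 to 325 FPKM and the amidating enzyme gene Pam at 87.5 to 110. Of the 25 genes of processing and dense-core granules 12 were tested, and 0 passed in any comparison. Of all tested genes, 7.42% and 0.239% passed for BRAFi in control and PD-L2 tumors, and 0% and 0.0743% for PD-L2 under vehicle and BRAFi. With 12 genes, a count of 0 lies near these shares. At an unadjusted p under 0.05 in limma's test there was 1 gene for BRAFi in control tumors (31.8% of all genes) and 2 in PD-L2 tumors (21.3%). For PD-L2 there was 1 under vehicle (10.9%) and 0 under BRAFi (7.06%). Ptprn, a granule membrane protein, had differences with BRAFi of 0.66 ± 0.37 (limma adjusted p = 0.236) and 0.68 ± 0.37 (0.31). Cadps, a factor for granule release, was at 1.32 ± 0.31 in PD-L2 tumors (limma adjusted p = 0.0863) and -0.22 ± 0.31 in control tumors. Ctsl, a cathepsin that can cut proenkephalin, was at 0.91 ± 0.33 (0.0966) and 0.59 ± 0.33 (0.336). Chga and Chgb, chromogranin genes, had means over the 12 tumors of 0.492 and 0.0253 FPKM.

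Of 73 other neuropeptide and peptide hormone genes, the table listed 72 and 11 passed the filter, so most hormone genes were silent or nearly so. Stc1, encoding the calcium-regulating hormone stanniocalcin 1, was the 1 gene among them that passed, rising by 2.19 ± 0.41 with BRAFi in control tumors (limma adjusted p = 0.0301). That is 9.09% of the 11, near the 7.42% of all tested genes. It was at 17, 20.4 and 40.8 FPKM in control vehicle tumors and at 104, 170 and 83.9 in control BRAFi tumors. In PD-L2 tumors it was at 7.64, 13.4 and 11.2 FPKM under vehicle and 63.5, 33.1 and 87.0 under BRAFi, a difference of 2.33 ± 0.41 that missed the threshold (limma adjusted p = 0.0528). Stc1 was highest in control BRAFi tumor 2 and lowest of the treated tumors in PD-L2 BRAFi tumor 2, the same extremes as Nppb and Pthlh. Its call in control tumors was lost in 9 of 21 alternatives. Adm, the adrenomedullin gene, was at 1.53 ± 0.69 with BRAFi in PD-L2 tumors (limma adjusted p = 0.233), and the natriuretic peptide gene Nppc at 0.87 ± 0.52 and 0.90 ± 0.52. Insl3, an insulin-like hormone gene, was at -1.09 ± 0.32 in control tumors (limma adjusted p = 0.06). The median change of the 11 genes was -0.13 in control and 0.08 in PD-L2 tumors, against 0.02 and 0.01 for all tested genes.

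Promoters of neuropeptide genes are known targets of cAMP, CREB and activity-induced transcription factors. A list of 35 cAMP and CREB responsive genes, which also held regulators such as Creb1 and Crtc3, was therefore made, and 31 were tested. With BRAFi in control tumors 6 rose and 0 fell (19.4% of the list against 7.42% of all tested genes, 3.51% higher and 3.91% lower), and the list's median was 0.51. Areg, an EGF receptor ligand, rose by 2.62 ± 0.62 (limma adjusted p = 0.0396) and the early response gene Egr1 by 1.95 ± 0.43 (0.0358). Inhba, an activin subunit gene, rose by 1.68 ± 0.38 (0.0383) and the AP-1 gene Fosb by 1.18 ± 0.26 (0.0361). Creb1 rose by 0.53 ± 0.12 (0.0391) and its coactivator gene Crtc3 by 0.48 ± 0.13 (0.0474). In PD-L2 tumors 0 of 31 passed, with 6 at an unadjusted p under 0.05 in limma's test, which 21.3% of all genes reached, and a median of 0.09, and the difference between backgrounds was not tested over the list. Between PD-L2 and control tumors under vehicle the median was 0.63, with 0 genes past the threshold and 13 of 31 at an unadjusted p under 0.05 (10.9% of all genes). Under BRAFi it was 0.03, with 0 and 3 of 31 (7.06% of all genes).

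Over these 4 lists together 59 genes were tested, and 7 passed with BRAFi in control tumors (11.9%, against 7.42% of all genes). In the other 3 comparisons 0 passed, where the shares of all genes were 0.239%, 0% and 0.0743%. That count of 7 depended on single libraries. It was 0 when any of PD-L2 vehicle tumor 2, PD-L2 BRAFi tumor 1, control vehicle tumors 1 and 2 or control BRAFi tumors 2 and 3 was left out. It was 1 without PD-L2 vehicle tumor 1, 3 without PD-L2 vehicle tumor 3 and 4 without control BRAFi tumor 1. It was also 0 once the trend of expression with transcript length was removed. PD-L2 libraries enter through the shared estimate of spread.

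**Figure D4:**
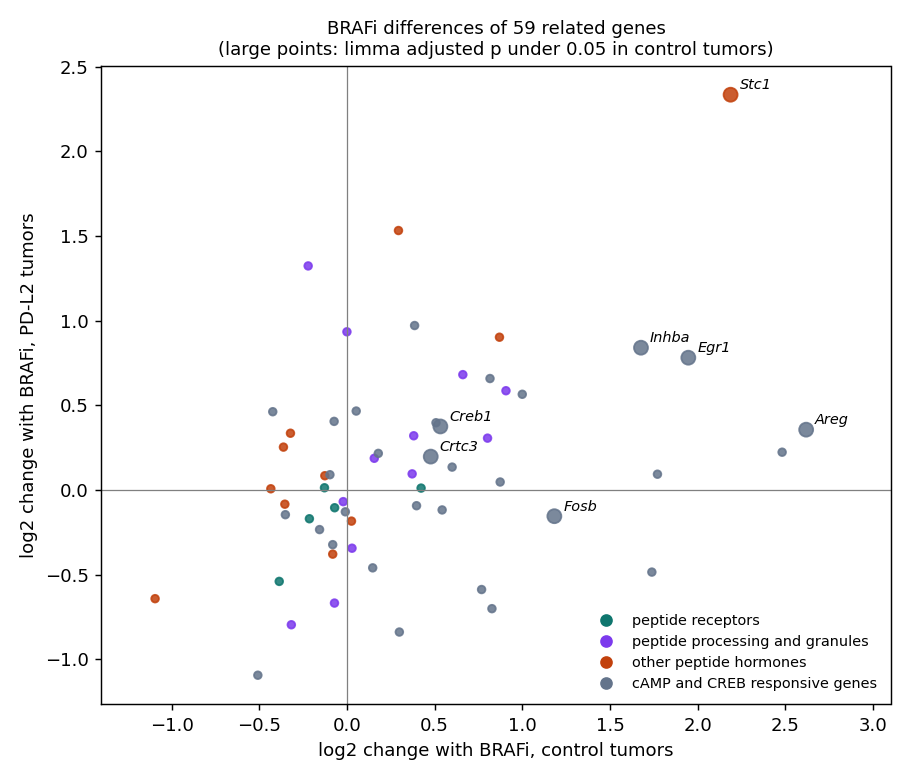
Log2 difference with BRAFi in control tumors (x axis) and PD-L2 tumors (y axis) for 59 tested genes of 4 lists; each point is a gene and large labelled points passed in control tumors. Stc1 lies at 2.19 and 2.33, while Areg lies at 2.62 and 0.36.

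Markers of cells that use these peptides were followed beside them. Of 18 markers of neurons and chromaffin cells, 11 were under 1 FPKM in all tumors and 2 of these were listed at 0 throughout. The summed FPKM was 21.3 to 34.3 in control vehicle, 66.6 to 447 in control BRAFi, 23.7 to 63.8 in PD-L2 vehicle and 39.6 to 302 in PD-L2 BRAFi tumors. The neurofilament genes gave most of the highest sum, with Nefl at 278 and Nefm at 151 FPKM in control BRAFi tumor 2. Nefl was at 63.6, 278 and 27.8 FPKM in control BRAFi tumors and at 31.8, 13.6 and 197 in PD-L2 BRAFi tumors, against 2.48 to 16.1 under vehicle. Its differences with BRAFi were 2.90 ± 0.94 (limma adjusted p = 0.0734) and 3.48 ± 0.94 (0.108), and those of Nefm were 2.69 ± 0.84 (0.0671) and 2.40 ± 0.84 (0.16). Both were highest in control BRAFi tumor 2 and lowest of the treated tumors in PD-L2 BRAFi tumor 2, as Nppb and Pthlh were. Snap25, a synaptic vesicle fusion gene, rose by 1.28 ± 0.29 in control tumors (0.0368), from at most 0.177 FPKM to 1.26 to 2.58. The Schwann cell gene Cdh19 rose in control tumors too (1.32 ± 0.32, limma adjusted p = 0.0418). Pmp22 of the same list was lower there, at -0.55 ± 0.22 (limma adjusted p = 0.112), and the median of its 7 tested genes was 1. The summed FPKM of 12 Schwann markers was 48.3 to 62.1 in control vehicle and 36.8 to 83.2 in control BRAFi tumors. In PD-L2 tumors it was 51.4 to 67.4 under vehicle and 39.9 to 51.2 under BRAFi. The calls of Snap25 and Cdh19 were fragile: that of Snap25 was lost in 10 of the alternatives and kept in 9, and that of Cdh19 was lost in 12 and kept in 8. Both were lost without control vehicle tumor 1 or 2, PD-L2 vehicle tumor 1 or 2, control BRAFi tumor 1 or 2, or PD-L2 BRAFi tumor 1, and that of Cdh19 also when tumor 3 of either control group was left out. Whether these markers have a part in the peptide gene differences was not tested.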

How the data were processed

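Expression was measured in 12 tumors by RNA sequencing of poly(A) RNA with an unstranded TruSeq kit, per the labels' protocols. The labels name paired-end reads and the series design single-end reads. The authors deposited FPKM values in a single table with 1 column per tumor. TopHat, TopHat2, Cuffdiff and Cuffnorm were used with mm9, per the submitters' processing notes, which list no version or role. Without strand, reads of a gene and its antisense partner cannot be separated.

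Tumors were grouped by their titles. Log2(FPKM + 1) of 12117 genes that averaged 1 FPKM or more was fitted with limma 3.58.1 in R 4.3.3, with 1 mean per group and a mean-variance trend. Tests were two-sided, with Benjamini-Hochberg adjustment over these genes and a threshold of 0.05. On simulated data for BRAFi in control tumors (12117 genes, 200 changed by 3 on the log2 scale), 92.5% of changed genes were recovered. The simulated noise was drawn separately for each gene, without tumor effects shared between genes. The share recovered in the real tumors is therefore unknown. The members and lists were chosen with earlier results of these data known, and the motifs after the promoter sequences were seen. Named genes are the members, list genes past the threshold or, where fewer than 4 passed, those with the smallest p for the averaged BRAFi response, and the 3 nearest profiles of each member; 1 such gene is not reported here. Other list genes named for their level (Npr2, Furin, Cpe, Pam, chromogranin, convertase and receptor genes) were chosen after their values were seen. Alternatives were a pseudocount of 0.1, no filter or a filter at 5 FPKM, rescaling to the same sum, quantile normalization, fits to the groups compared, no trend, a replicate block, each library left out and, added after seeing the data, removal of the trend with transcript length.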

Additional observations from a re-analysis of the deposited data

How the results depend on the processing

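With BRAFi, 4 members were higher in PD-L2 tumors under all 21 alternatives and in control tumors under 20, with 5 in the remaining one, no filter, which added Vgf. With a pseudocount of 0.1 the Npy differences were 6.31 and 5.35 and that of Gal in PD-L2 tumors was 3.79. No member passed between PD-L2 and control tumors under any alternative. Differences that were small changed sign. Gal under BRAFi was -0.08 after rescaling to the same sum and -0.02 with the length trend removed. Leaving out each library gave, under BRAFi, -0.26 to 0.63 for Gal, -1.56 to 1.02 for Npy, -1.77 to 0.40 for Nppb and -1.73 to 0.08 for Pthlh, and under vehicle -0.02 to 0.29 for Npy and -0.59 to 0.16 for Pthlh. The count of related genes called for BRAFi in control tumors was 0 without a filter, 1 in the fit to the 2 groups compared only, 0 with the length trend removed and 0 to 8 over libraries left out. In PD-L2 tumors it was 1 with a pseudocount of 0.1, 1 with a filter at 5 FPKM, 1 after quantile normalization and 0 to 2 over libraries left out. The cause was not tested. Over all genes the count for BRAFi in control tumors was 899, against 196 without a filter, 18 in the fit to 2 groups, 51 with the length trend removed and 0 to 1657 over libraries left out; rescaling to the same sum took the median of all genes from 0.02 to 0.17 there and from -0.01 to -0.19 for PD-L2 under BRAFi. Same-numbered tumors showed little joint deviation, with correlations of -0.37 to 0.24 and 1 to 3 of 6 tumors a comparison closest to their own number. With 3 tumors a group, a pairing by number can be neither shown nor excluded in this way. The replicate block gave 8 related genes for BRAFi in control tumors, 0 elsewhere, and 4 members higher with BRAFi on each background. Over all genes it called 1334 for BRAFi in control tumors, against 899 without it. Unknown depth limits what can be said of genes near 0, such as Vgf and the receptors.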

Other observations

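Control BRAFi tumor 1, which had the highest Npy, Gal and Vgf, also had the highest Krt18 (91.4 FPKM), Sox10 (24.9 FPKM) and Cdh5 (120 FPKM) of the 12 tumors. Sox10, a regulator of the neural crest and melanocyte lineage, was at 6.66 FPKM in control BRAFi tumor 3, 1.38 in PD-L2 BRAFi tumor 1 and under 1 FPKM elsewhere. Control BRAFi tumor 2, which had the highest Nppb and Pthlh, also had the highest Prl2c3 (209 FPKM), Mcpt1 (98.1 FPKM), Gpr149 (35.2 FPKM), Areg (60.1 FPKM) and Ctsl (2570 FPKM), while its Sox10 was 0.091 FPKM. These genes were picked out after their values were seen, and none of these patterns was tested.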
